A study of Mus musculus with 7 samples.

Results

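The genes described here are 10 genes of GABA synthesis and interneuron identity: Gad1, Gad2, Slc32a1, Pvalb, Calb2, Lhx6, Dlx1, Dlx2, Dlx6 and Reln. They were chosen by symbol, and all 10 were found among the 55367 genes of the count table. The study measured RNA by sequencing in brain samples of C57BL/6J mice labelled P90, with 3 noCRS and 4 CRS libraries. The RNA is described as that of mPFC-LHB projection neurons, cells of the medial prefrontal cortex whose axons reach the lateral habenula. Its title speaks of chronic stress and depression. No transgene or other allele is named in the labels, and the sources used here do not give how the neurons were marked and collected. The labels tie no library to 1 animal. The p-values therefore reflect only how these samples vary, which may be technical.

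GABA, the main inhibitory transmitter of the cortex, is made from glutamate by the 2 decarboxylases that Gad1 and Gad2 encode, and is loaded into synaptic vesicles by the transporter that Slc32a1 encodes. Cortical GABA neurons are born in the ventral forebrain, where the Dlx homeodomain factors and Lhx6 set their fate, and they then divide into classes named for what they make, such as the calcium-binding proteins parvalbumin (Pvalb) and calretinin (Calb2) or the peptide somatostatin (Sst). Reelin, a secreted matrix protein, marks a further class in the adult cortex. Prefrontal neurons that project to the habenula are described as excitatory cells, so these genes are not their defining markers.

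Promoter stretches are shown for the pair of members whose groups did not overlap, Gad1 and Dlx2. They are the bases before the RefSeq start on GRCm38.p6, read 5′ to 3′ on the gene's strand, and leave out bases that the count table annotates as exon. The Gad1 stretch lies inside the gene as counted, which begins at 70553072, and so precedes an internal start. It ends 87 exon bases short of that start. The Dlx2 stretch lies outside its counted gene. Entries were found for 8 of the 10 members.
Gad1, plus strand, chr2:70561879-70562041: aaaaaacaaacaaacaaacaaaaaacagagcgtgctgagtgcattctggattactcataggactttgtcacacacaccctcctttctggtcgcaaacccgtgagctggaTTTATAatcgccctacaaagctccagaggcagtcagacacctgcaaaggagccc
Dlx2, minus strand, chr2:71546755-71547004: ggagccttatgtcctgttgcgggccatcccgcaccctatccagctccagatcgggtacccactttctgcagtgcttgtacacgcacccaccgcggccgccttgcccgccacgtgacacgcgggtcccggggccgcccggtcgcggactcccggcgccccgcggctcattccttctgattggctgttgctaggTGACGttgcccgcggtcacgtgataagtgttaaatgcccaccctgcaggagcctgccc

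Capitals mark matches, on either strand, to the letters TATAAA (in Gad1, on the other strand) and TGACG (in Dlx2). The 250 bases before the start were also searched for TAATTA and TAATTG, letters that homeodomain proteins such as the Dlx factors bind, and for TGACGTCA, which holds TGACG. Neither the homeodomain letters nor the full TGACGTCA was in the windows of Gad1, Gad2, Dlx1 or Dlx2, while TAATTG was found once, in 1 of the windows of Lhx6. Of the 250 bases, 87 were annotated exon for Gad1, 122 for Gad2, all 250 for Dlx1 and 0 for Dlx2. Among 32851 promoter windows of the same length, 12.4% held TATAAA, 17.8% TGACG, 4.84% TAATTA, 7.17% TAATTG and 1.55% TGACGTCA. A match is a description of letters only, and the absence of one says nothing of a factor.

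Library totals ran from 28677703 to 39965667 counts, and between 5 and 9 of the 10 members had at least 1 count in a library. Genes with at least 1 count ran from 16938 in CRS replicate 2 (6 members) to 23399 in CRS replicate 4 (9 members). CRS replicate 1 had 18604 (5 members). The part of this difference in members at 0 counts was not tested. The common biological coefficient of variation estimated by edgeR was 0.919. Values below are CPM (counts divided by the TMM-scaled library total) unless called counts. In a single library, 3 counts equal 0.0724 to 0.0990 CPM, a limit that covers counting error only. Genes were tested with edgeR's quasi-likelihood test and Benjamini-Hochberg adjustment over 17833 genes, with a threshold of 0.05, and 2.30% of these genes passed it (2.07% higher and 0.230% lower in CRS). The default expression filter kept 7 members, while Slc32a1, Lhx6 and Dlx6 were too low and were not tested. RNA of neurons differed between the groups as a whole: 6 of 12 pan-neuronal genes rose and 0 fell, and their summed level was 459 to 560 CPM in noCRS and 3742 to 5257 CPM in CRS. Of 8 excitatory cortical neuron genes 3 rose (Neurod6, Nrgn and Sv2b) and 0 fell. Slc17a7, the glutamate transporter that defines cortical excitatory neurons, had at most 0.603 CPM in any noCRS library and 6.77 to 13.5 CPM in CRS, while oligodendrocyte genes summed to 24254 CPM or more in every library. In bulk RNA, fewer cells of a type and less RNA per cell cannot be told apart.

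Of the 7 tested members 1 rose, Gad1, and 0 fell. Gad1 was also the single member with an unadjusted p below 0.05 and the single member called by DESeq2 and by limma-voom. The groups did not overlap for Gad1 (higher in CRS) and Dlx2 (lower in CRS), 2 of 7 tested members, beside 16.9% of all tested genes (10.1% higher and 6.74% lower in CRS). The median log2 fold change of the 7 was 1.47, beside -0.02 over all tested genes. The median over tested members moved with single libraries. It was 0.32 without CRS replicate 4, 0.44 without CRS replicate 3 and 0.97 without noCRS replicate 3. Without CRS replicates 1 and 2 in turn it was 1.69 and 1.55. Leaving out noCRS replicate 1 or 2 gave 0.74 and 1.18, each over 8 tested members.

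Gad1 encodes the decarboxylase that makes most GABA in the cell body, and it lies on chromosome 2 from 70553072 to 70602014 (GRCm38, plus strand, 21 merged exon blocks). It measured 30.3, 23.9 and 22.8 CPM in noCRS replicates 1 to 3, and 77.8, 162, 77.3 and 72.5 CPM in CRS replicates 1 to 4. All 4 CRS libraries were above all 3 noCRS libraries, and CRS replicate 2 stood well above the rest of its group. The group means were 25.7 ± 4.08 CPM (SD, n = 3) and 97.4 ± 43.1 CPM (SD, n = 4), a 3.79-fold difference, with a log2 fold change of 1.92 ± 0.34 (SE, edgeR adjusted p = 0.0299). Without CRS replicate 2 the CRS mean was 75.9 CPM, 2.96-fold over noCRS, and the call held (edgeR adjusted p = 0.0206). It was lost without any 1 of the other 6 libraries, with edgeR adjusted p from 0.0524 to 0.136. The antisense gene Gad1os shares no exon bases with Gad1 and had 0 counts in 5 libraries and 19 in each of the others.

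Gad2 encodes the second decarboxylase, found mainly at nerve terminals (chromosome 2, 22622205 to 22693874, plus strand). Its counts were 0, 123 and 195 in noCRS and 36, 68, 289 and 922 in CRS, or 0, 3.95 and 6.01 CPM and 1.09, 2.12, 9.54 and 24.02 CPM. The groups overlapped: noCRS replicates 2 and 3 lay above CRS replicates 1 and 2, and CRS replicate 4 was highest. The log2 fold change was 1.47 ± 1.69 (SE, edgeR adjusted p = 0.844), and the CRS mean of 9.19 CPM was 4.25 CPM without CRS replicate 4.

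The 2 decarboxylase genes did not keep 1 ratio across libraries. Per kilobase of exon, Gad1 was 4.65 and 2.92 times Gad2 in noCRS replicates 2 and 3, while noCRS replicate 1 had no Gad2 count. The ratio was 55.1, 58.7, 6.23 and 2.32 in CRS replicates 1 to 4. CRS replicate 2, the highest library for Gad1, was thus among those with the least Gad2 for its Gad1, and CRS replicate 4 lay below both noCRS ratios.

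Slc32a1, the vesicular GABA transporter that all GABA neurons use for release, was at or near 0 throughout (chromosome 2, 158610767 to 158615748, plus strand). It had 0 counts in noCRS and in CRS replicates 1 and 2, and 4 counts each in CRS replicates 3 and 4 (0.132 and 0.104 CPM). Per kilobase, Gad1 was at least 90.3-fold higher than the 3-count floor of Slc32a1 in each of the 5 libraries at 0, and 214-fold and 255-fold higher in CRS replicates 3 and 4. Slc32a1 shares 24.9% of its exon length with Gm14205 on the other strand, and the sources used here do not give how reads in shared exons were counted. Gm14205 itself had 4 counts in CRS replicate 4 and 0 elsewhere.

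**Figure D1:**
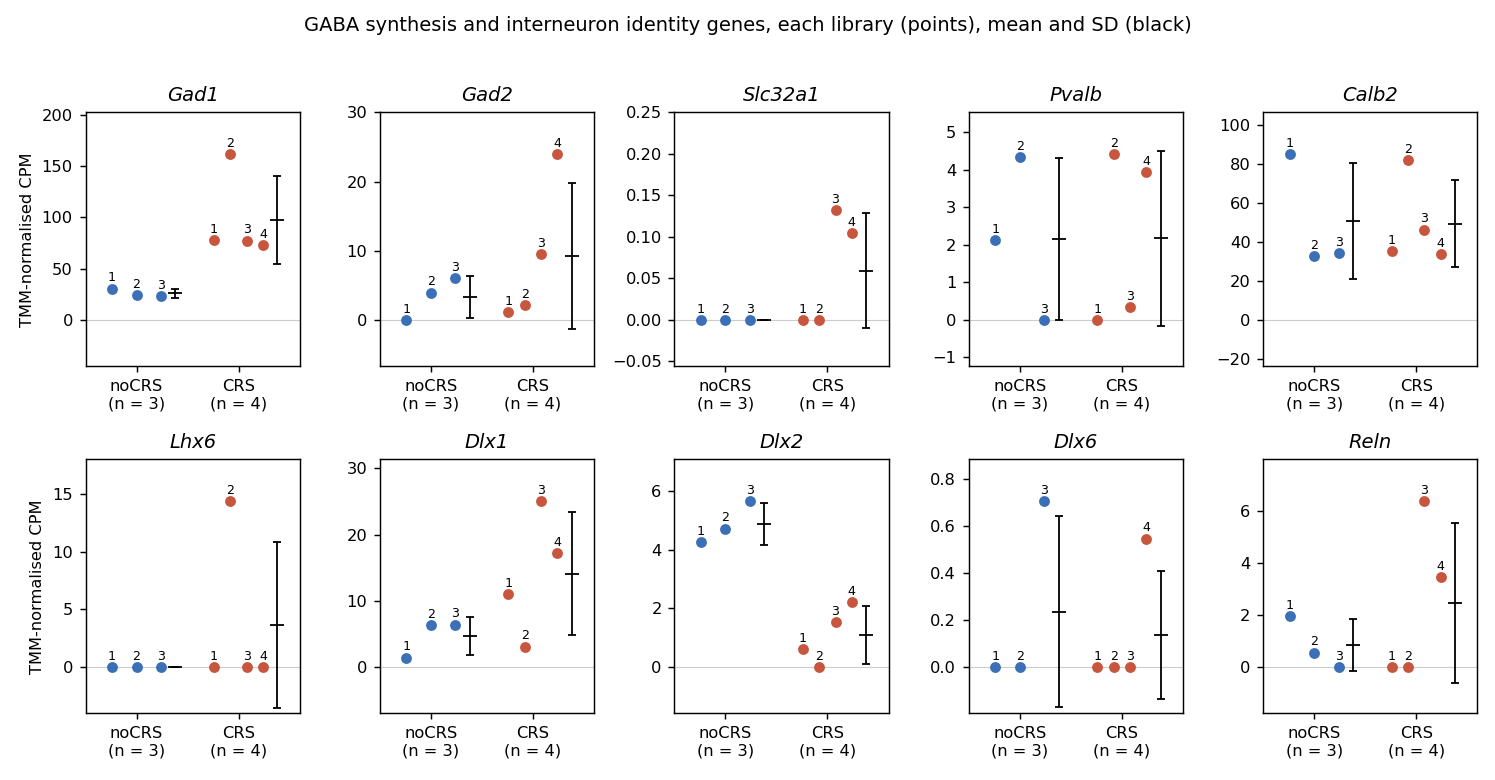
TMM-normalised CPM (y axis, a scale of its own for each gene) of the 10 members in each noCRS and CRS library; points are libraries with their replicate number, and black marks are the mean and SD. Gad1 lies between 22.8 and 30.3 CPM in noCRS and between 72.5 and 162 CPM in CRS, Dlx2 is lower in every CRS library, and the groups overlap for the other 8 genes.

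Gad1 was also set against pan-neuronal genes, as a description with no test. The mean log2 CPM of the 12 pan-neuronal genes was 4.204 ± 0.21 (SD, n = 3) in noCRS and 7.14 ± 0.32 (SD, n = 4) in CRS. Relative to that mean, log2 CPM of Gad1 was 0.87, 0.47 and 0.08 in noCRS and -1.24, 0.47, -0.61 and -1.09 in CRS. CRS replicate 2 lay within the noCRS range on this relative scale, and the other 3 CRS libraries lay below it. Calb2 was at 2.36, 0.92 and 0.66 in noCRS and at -2.37, -0.51, -1.35 and -2.19 in CRS, without overlap. On the same scale Dlx2 was at -1.95, -1.86 and -1.92 in noCRS and at -6.08 or lower in CRS. The mean subtracted was itself higher in every CRS library (6.87 to 7.52) than in noCRS (4.06 to 4.44). A gene with unchanged CPM therefore falls on this scale, and the CPM of Calb2 overlapped between the groups. The share of all tested genes without overlap on this scale was not computed.

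**Figure D2:**
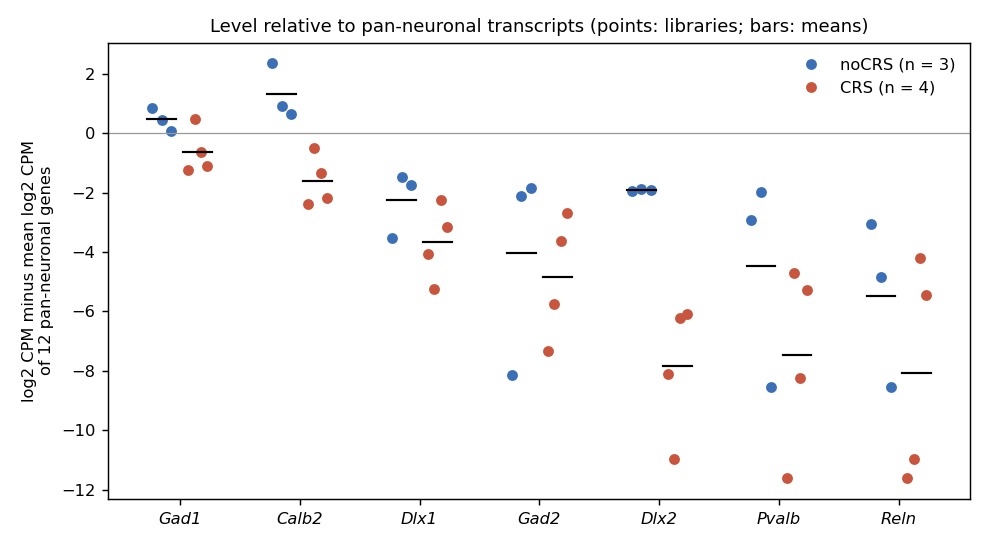
Log2 CPM of each tested member minus the mean log2 CPM of 12 pan-neuronal genes (y axis) by library, with noCRS in blue, CRS in red and group means as black bars. Gad1 in CRS replicate 2 (0.47) lies within the noCRS range, while for Calb2 and Dlx2 all 4 CRS libraries lie below all 3 noCRS libraries. The mean subtracted was higher in every CRS library, so a gene with unchanged CPM falls on this scale.

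Calb2, which encodes calretinin, was the most abundant member per kilobase (chromosome 8, 110137502 to 110168210, minus strand). It measured 85.4, 32.7 and 34.2 CPM in noCRS and 35.5, 82.1, 46.4 and 33.8 CPM in CRS. In each group 1 library was high (noCRS replicate 1 and CRS replicate 2) and the others lay between 32.7 and 46.4 CPM. The group means were 50.8 ± 30.0 CPM (SD, n = 3) and 49.4 ± 22.5 CPM (SD, n = 4), with a log2 fold change of -0.04 ± 0.45 (SE, edgeR adjusted p = 0.991). The noCRS mean was 33.4 CPM without noCRS replicate 1, which put CRS 1.48-fold higher, still short of the threshold (edgeR adjusted p = 0.653).

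Pvalb, the calcium buffer of fast-spiking interneurons, was low and uneven (chromosome 15, 78191114 to 78206400, minus strand). It measured 2.12, 4.33 and 0 CPM in noCRS and 0, 4.43, 0.330 and 3.94 CPM in CRS. Both groups held libraries at 0 and libraries near 4 CPM, and the log2 fold change was 0.01 ± 2.07 (SE, edgeR adjusted p = 0.999). Its sign turned under other scalings and when single libraries were left out.

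Lhx6, a factor required for interneurons of the medial ganglionic eminence such as the parvalbumin and somatostatin classes, was detected in 1 library (chromosome 2, 36081953 to 36105408, minus strand). CRS replicate 2 had 462 counts (14.4 CPM), and the other 6 libraries had 0. The small gene Gm27953, which covers 2.16% of Lhx6 exon length, had 24 counts in CRS replicate 2 and 0 elsewhere. CRS replicate 2 was also the library highest in Gad1 (162 CPM), Pvalb (4.43 CPM), Sst (398 CPM), Npy (218 CPM) and Vip (94.6 CPM). Other genes went the other way there: Dlx2 and Reln had 0 counts, Dlx1 (3.06 CPM), Cck (76.3 CPM) and Calb1 (6.58 CPM) were the lowest of the CRS group, and Gad2 was at 2.12 CPM. These genes were set together, and Vip and Calb1 were named, after their values were seen.

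The Dlx genes form convergent or neighbouring pairs. Dlx1 (chromosome 2, 71528113 to 71533981, plus strand) and Dlx2 (71543408 to 71546754, minus strand) lie 9.4 kb apart, about 926.1 kb beyond Gad1 on the same chromosome. Dlx6 (chromosome 6, 6863334 to 6868568, plus strand) lies 9.2 kb from Dlx5.

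Dlx1 measured 1.40, 6.26 and 6.38 CPM in noCRS and 10.99, 3.06, 25.1 and 17.2 CPM in CRS. CRS replicates 1, 3 and 4 were above every noCRS library, and CRS replicate 2 fell within the noCRS range. The log2 fold change was 1.59 ± 0.87 (SE, edgeR adjusted p = 0.514). Dlx1 shares 6.21% of its exon length with the antisense gene Dlx1as, so part of its reads cannot be told apart from Dlx1as where strand is not marked. Dlx1as measured 0.289, 4.75 and 3.57 CPM in noCRS and 4.65, 2.18, 9.38 and 6.96 CPM in CRS, with overlapping groups (edgeR adjusted p = 0.824).

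Dlx2 measured 4.27, 4.72 and 5.67 CPM in noCRS and 0.604, 0, 1.52 and 2.22 CPM in CRS. Every CRS library was below every noCRS library, with 508 counts over noCRS and 151 over CRS. The group means were 4.89 ± 0.71 CPM (SD, n = 3) and 1.08 ± 0.98 CPM (SD, n = 4), and noCRS was 4.51-fold higher. Without CRS replicate 4 the CRS mean was 0.708 CPM. The change of -2.17 ± 1.46 (log2, SE) did not pass the test (edgeR adjusted p = 0.642), nor did it in any of the other fits, leaving out single libraries included. Of all tested genes 6.74% were lower in CRS without overlap, and no exon of another gene overlaps Dlx2.

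Within the pair, the order of the genes per kilobase differed between the groups, a pattern chosen after its values were seen and not tested. Dlx1 was 0.173, 0.702 and 0.595 times Dlx2 in noCRS, and 9.63, 8.74 and 4.12 times Dlx2 in CRS replicates 1, 3 and 4. CRS replicate 2 had 98 counts of Dlx1 and 0 of Dlx2. Dlx2 was thus the higher of the pair in all 3 noCRS libraries, and Dlx1 in all 4 CRS libraries.

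Dlx6 had 23 counts in noCRS replicate 3, 21 in CRS replicate 4 and 0 in the other 5 libraries. Its neighbour Dlx6os1, a long noncoding RNA on the other strand that shares no exon bases with it, was higher at 1.496, 8.51 and 15.7 CPM in noCRS and 8.42, 11.3, 26.6 and 25.2 CPM in CRS (edgeR adjusted p = 0.71). Dlx5, of the same pair as Dlx6, measured 2.03, 8.03 and 2.83 CPM in noCRS and 6.76, 0.25, 9.34 and 14.6 CPM in CRS (edgeR adjusted p = 0.874). The noncoding partner was thus present in all 7 libraries while the coding gene was found in 2.

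**Figure D3:**
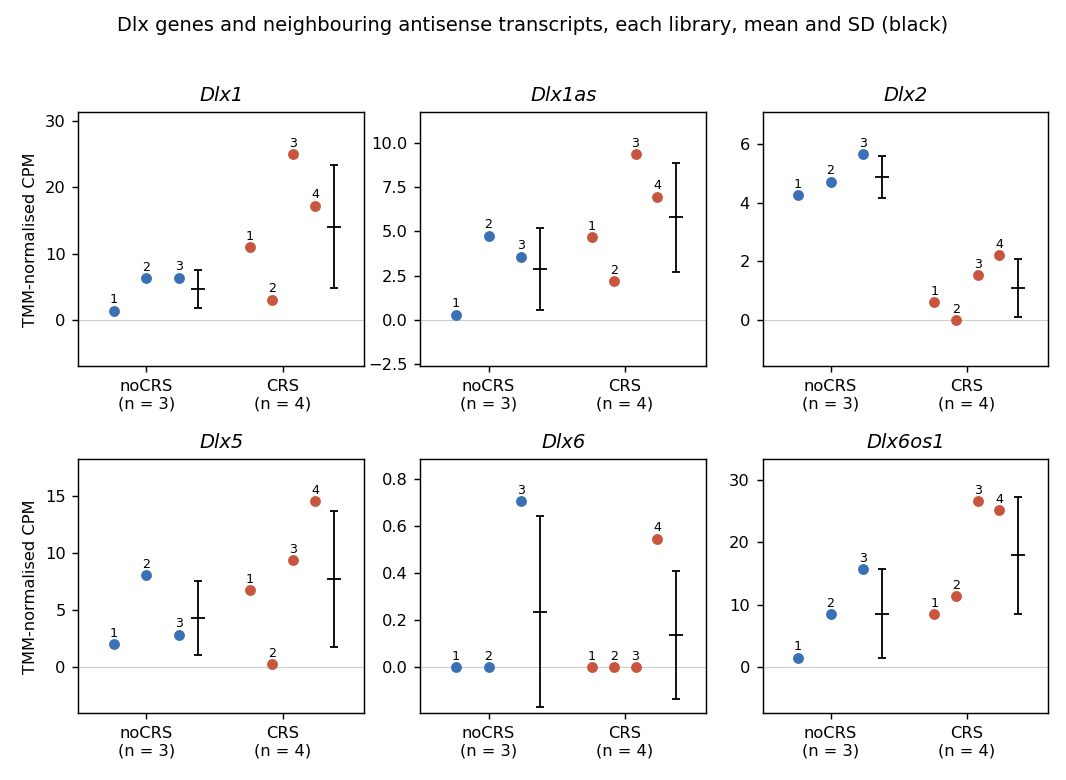
TMM-normalised CPM (y axis, a scale of its own for each gene) of Dlx1, Dlx2, Dlx5 and Dlx6 and of the antisense transcripts Dlx1as and Dlx6os1; points are libraries with their replicate number, and black marks are the mean and SD. Dlx2 is the gene whose groups do not overlap (4.27 to 5.67 CPM in noCRS, 0 to 2.22 CPM in CRS), and Dlx6 is above 0 in 1 library of each group.

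Reln, which guides neuronal layering in development and is made by a subset of adult interneurons, had 81, 17 and 0 counts in noCRS and 0, 0, 193 and 132 counts in CRS (chromosome 5, 21884454 to 22344702, minus strand). These were 1.95, 0.546 and 0 CPM, and 0, 0, 6.37 and 3.44 CPM. CRS libraries were at 0 or above every noCRS library, and the log2 fold change was 1.55 ± 2.46 (SE, edgeR adjusted p = 0.894). It was 3.16 without noCRS replicate 1, 0.97 without noCRS replicate 3 and 0.44 without CRS replicate 3. Reln shares 1.04% of its exon length with Gm10475 on the other strand, which had 108, 0 and 1 counts in noCRS and 0, 0, 21 and 3 in CRS. Over its 23738 bases of exon this came to 0.0351 ± 0.0425 CPM per kilobase (SD, n = 3) in noCRS and 0.103 ± 0.130 (SD, n = 4) in CRS.

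Ordered by mean CPM per kilobase over all 7 libraries, Calb2 (28.7) came first and Gad1 (8.73) second. The range of Calb2 over libraries, 18.8 to 48.99, overlapped that of Gad1, 2.98 to 21.2. Pvalb (2.08), Dlx1 (1.87), Gad2 (1.14) and Dlx2 (0.950) followed, and neighbours among these overlapped over their libraries, each with at least 1 library below 0.3. The order of these differed between the groups: in noCRS it was Pvalb (2.07), Dlx2 (1.71), Dlx1 (0.867) and Gad2 (0.565), and in CRS Dlx1 (2.61), Pvalb (2.09), Gad2 (1.56), Lhx6 (0.750) and Dlx2 (0.380). Lhx6 (0.429), Dlx6 (0.0755), Reln (0.0741) and Slc32a1 (0.0121) were lowest, each at 0 in at least 3 libraries.

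Other genes of GABA breakdown and supply were measured beside the members, and Slc38a1 was named after its values were seen. Abat, the transaminase that breaks GABA down, measured 70.6, 39.5 and 95.6 CPM in noCRS and 35.1, 37.8, 63.8 and 30.5 CPM in CRS, with overlapping groups (edgeR adjusted p = 0.469). Slc38a1, a transporter of glutamine, from which glutamate and then GABA are made, measured 25.9, 39.2 and 18.1 CPM in noCRS and 70.4, 40.9, 43.2 and 58.2 CPM in CRS. Every CRS library was above every noCRS library, but the difference did not pass the test (log2 fold change 0.94 ± 0.34, SE, edgeR adjusted p = 0.246).

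Markers of glia were checked too. Of 7 oligodendrocyte precursor genes 4 fell, C1ql1, Sox10, Cspg4 and Gpr17, and 0 rose, and their sum was 1912 to 2260 CPM in noCRS and 1042 to 1454 CPM in CRS. These 4 calls came down to 0 without noCRS replicate 2 and to 1 or 2 without any other single library. Of 6 astrocyte genes edgeR called 0, while 2 had an unadjusted p below 0.05, DESeq2 called 1 and limma-voom 0. Of 5 oligodendrocyte genes edgeR and the other tools called 0, and 0 had an unadjusted p below 0.05. Astrocyte genes summed to 10328 to 13308 CPM and 6085 to 12248 CPM. The part of glia in the member values was not tested.

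**Figure D4:**
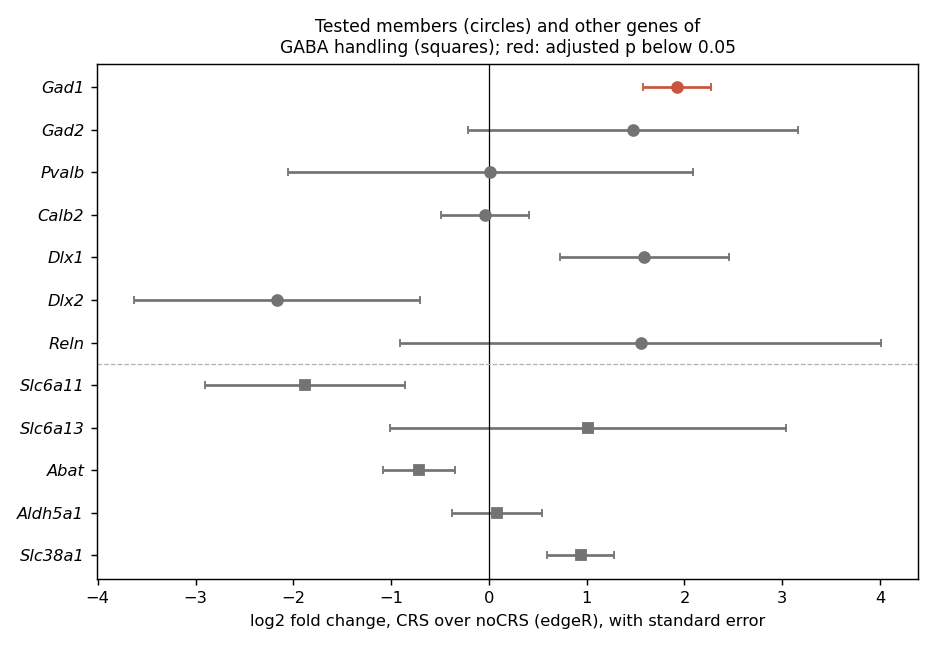
Log2 fold change of CRS over noCRS (x axis) with its standard error for the 7 tested members (circles) and 5 other tested genes of GABA handling (squares), red where edgeR's adjusted p was below 0.05. Gad1 (1.92) is the gene shown that passed the test, and the widest errors belong to Reln, Pvalb and Slc6a13.

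Peptides of interneuron classes rose with Gad1 in part. Of 16 tested class markers and peptides 2 rose and 0 fell by edgeR, with a median log2 fold change of 1.49. DESeq2 called 5, with Sst, Cck, Npy and Cnr1 higher and Cxcl14 lower, and limma-voom called 1, Cck. Cxcl14, a chemokine of some interneurons, measured 113, 88.3 and 91.6 CPM in noCRS and 44.2, 30.4, 40.3 and 75.5 CPM in CRS, lower without overlap (edgeR adjusted p = 0.163). Sst measured 2.34, 2.41 and 2.87 CPM in noCRS and 50.5, 398, 99.3 and 124 CPM in CRS (log2 fold change 6.05 ± 0.80 SE, edgeR adjusted p = 0.00928). Without CRS replicate 2 the CRS mean fell from 168 to 91.4 CPM and the log2 fold change was 5.15. Limma-voom did not call Sst, nor did edgeR when noCRS replicate 1 or 2 was absent (adjusted p = 0.0543 and 0.0552). Cck, a peptide of some interneurons and also of cortical excitatory neurons, measured 11.2, 6.26 and 5.82 CPM in noCRS and 203, 76.3, 88.8 and 163 CPM in CRS (edgeR adjusted p = 0.00574). For both, every CRS library lay above every noCRS library. Npy measured 28.1, 31.0 and 26.3 CPM in noCRS and 57.95, 218, 41.4 and 63.0 CPM in CRS, without overlap but short of the threshold (edgeR adjusted p = 0.197). By the mean per kilobase over all 7 libraries it was second of the list after Sst. The order differed by group: the means of Npy and Sst were 50.3 and 3.52 CPM per kilobase in noCRS, and 168 and 233 in CRS.

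In the list of other interneuron transcription factors edgeR called 0 of 13 tested genes, while 4 had an unadjusted p below 0.05, DESeq2 called 3 and limma-voom 0. Nkx2-1 and Lhx8, which act before or beside Lhx6 in the ventral forebrain, had 0 counts in all 7 libraries. The highest per kilobase was Sox6, a factor of interneurons and also of oligodendrocyte precursors, at 328 ± 64.6 CPM (SD, n = 3) and 209 ± 39.7 CPM (SD, n = 4; edgeR adjusted p = 0.191). DESeq2 called Sox6 lower in CRS and 2 other genes of this list higher. The groups did not overlap for Sox6, as for 4 of the 13 tested genes in all, beside 16.9% of all tested genes. Prox1, known from interneurons of the caudal ganglionic eminence, measured 28.6 ± 8.23 CPM (SD, n = 3) and 50.2 ± 21.2 CPM (SD, n = 4; edgeR adjusted p = 0.401).

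Of 6 tested genes of fast-spiking physiology edgeR called 0, while 1 had an unadjusted p below 0.05, and DESeq2 and limma-voom each called 1. That gene was Cplx1, a complexin of vesicle release, at 8.32, 8.64 and 16.2 CPM in noCRS and 54.4, 31.7, 33.1 and 34.1 CPM in CRS (edgeR adjusted p = 0.0625). Kcnc2, a fast potassium channel, measured 0.217, 0 and 8.81 CPM in noCRS and 15.6, 25.6, 16.1 and 5.03 CPM in CRS (edgeR adjusted p = 0.67), and Syt2, a calcium sensor of parvalbumin cell terminals, had 0 counts in all libraries. Of 6 genes of the reelin pathway edgeR called 0, while 1 had an unadjusted p below 0.05. DESeq2 and limma-voom each called 1, Fyn, a kinase downstream of the reelin receptors (326 ± 42.8 and 220 ± 36.0 CPM, n = 3 and 4, edgeR adjusted p = 0.174). The adaptor Crk measured 72.2 ± 4.50 CPM (SD, n = 3) and 111 ± 40.7 CPM (SD, n = 4; edgeR adjusted p = 0.439).

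Other cells that make GABA or reelin were checked by their markers. Striatal neurons also use Gad1 and Gad2: of their 7 markers 4 were tested and edgeR called 0, while 3 had an unadjusted p below 0.05, DESeq2 called 3 and limma-voom 0. All 3 DESeq2 calls were higher in CRS, and 2 of the 4 tested markers did not overlap between the groups, beside 16.9% of all tested genes. The sum of the 7 markers was 21.4 to 57.5 CPM in noCRS and 57.4 to 105 CPM in CRS. Ppp1r1b was at 13.3 to 23.5 CPM in noCRS and 30.8 to 47.9 CPM in CRS. Rgs9, named after its values were seen, measured 5.50, 10.8 and 33.9 CPM in noCRS and 24.6, 7.64, 7.46 and 5.78 CPM in CRS. The receptors that define these neurons, Drd1, Drd2 and Adora2a, had 0 counts in noCRS. In CRS, Drd1 measured 22.8, 0, 3.27 and 6.12 CPM, Drd2 at most 0.0302 CPM, and Adora2a was found in CRS replicate 4 alone. Cajal-Retzius cells, a reelin source, left their 4 markers summing to at most 0.437 CPM in any library, with Ebf3 at 0 in all. Neuroblast markers, which go with Dlx1 and Dlx2 in newborn neurons, summed to 130 to 201 CPM in noCRS and 156 to 322 CPM in CRS, and edgeR called 0 of 6, while 0 had an unadjusted p below 0.05 and the other tools called 0. Of the microglia and of the endothelial and mural genes edgeR called 0 in each list, while 0 and 1 had an unadjusted p below 0.05, DESeq2 called 1 in each and limma-voom 0. The part of these cells in the member values was not tested.

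The 3 tested members of smallest p were compared with 10816 other genes by the root mean square difference of centred log2 CPM over the 7 libraries. Nearest to Gad1 were Unc80, a subunit of the sodium leak channel complex (0.212), Frat1 (0.219) and Camk1d, a calmodulin-dependent kinase (0.228), beside a median of 1.14 over all candidates. The group means of Unc80 were 9.71 CPM (noCRS) and 44.3 CPM (CRS) (edgeR adjusted p = 0.0318), and Frat1 and Camk1d did not pass the test (adjusted p = 0.171 and 0.117). Nearest to Dlx1 were Ap1s2 (0.495), Cmip (0.555) and Azin1 (0.569), and nearest to Dlx2 were Nwd1 (0.535), Adam1a (0.545) and Tysnd1 (0.548), with medians of 1.43 and 2.23 over all candidates. Among the members themselves the closest pair was Gad1 and Calb2 (0.961), near the median of 1.14 for Gad1 over all candidates. Both were high in CRS replicate 2, but Calb2 was highest in noCRS replicate 1 (85.4 CPM), where Gad1 was at 30.3 CPM. Dlx1 and Dlx2 were 2.43 apart.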

How the data were processed

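RNA-seq counts of 3 noCRS and 4 CRS libraries were analysed. The authors deposited raw counts per gene with exon coordinates and exon length. The submitters' processing notes name featureCounts, HISAT2, HISAT, FastQC, DESeq2 and GRCm38, with no versions. The column names end as default names of another aligner do, so the aligner is not settled, and the sources used here do not give how reads with several positions or in shared exons were counted. The labels' protocols name a transposase library kit, and such a kit does not mark strand.

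The test was that of edgeR 4.0.16 under R 4.3.3 (default filter, TMM, quasi-likelihood, CRS over noCRS, no covariate), and p-values were adjusted over all 17833 tested genes. CPM use TMM factors, and log2 CPM a prior count of 2. DESeq2 1.42.0 (on all genes of the table) and limma-voom (limma 3.58.1), other scalings, filters and thresholds, each library left out and the replicate number as a block were alternatives. On simulated counts of this comparison over 17833 genes the test found 4% of 100 genes set to 2-fold and 28% of 100 set to 4-fold. No pair of libraries was a duplicate (chi-square per gene at least 93.6).

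The members and the gene lists were chosen with earlier results of these data known. The rule named all 10 members, up to 4 called genes in each direction and the 2 highest genes per kilobase of each list, the 3 genes nearest to each of 3 members, and overlapping or antisense genes. Marker lists of other cell types are given mainly as counts and sums. Some listed genes are not reported here. Promoters came from RefSeq (GRCm38.p6).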

Additional observations from a re-analysis of the deposited data

Results flagged for a closer look

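In a group of 4 libraries the gap of an outermost value to its nearest other was taken as a share of the group's range. The value stood apart when this share was above Dixon's 95% critical value. Chance gives this in about 1 in 20 groups of normally distributed values, which CPM with many 0 values are not. Values stood apart in CRS for 9 of 46 genes looked at. A gene found in 1 library of the 4 passes whatever its count, as Lhx6, Dlx6 and Lhx1 did. The 9 of 46 is therefore not set against 1 in 20. Of the members, Gad1 was high in CRS replicate 2 (162 CPM, next 77.8), Lhx6 was found in CRS replicate 2 alone of that group (14.4 CPM) and Dlx6 in CRS replicate 4 alone (0.547 CPM). Of the listed genes, CRS replicate 2 was high in Npy (218 CPM), and CRS replicate 1 was high in Cplx1 (54.4 CPM). CRS replicate 4 was high in Sox11 (204 CPM), P2ry12 (13.4 CPM) and Lhx1 (0.104 CPM) and low in Cspg4 (32.2 CPM).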

How the results depend on the processing

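Over all tested genes 410 passed edgeR's test, beside 1631 with DESeq2, which was run on all 55367 genes with its own filter and so differs in both tool and genes tested, 639 with limma-voom and 714 at an adjusted p of 0.1, and 142 to 352 with 1 library left out. Of the members 1 was called, Gad1, under every other tool, scaling and filter run, and 0 to 1 with 1 library left out (1 only without CRS replicate 2). Of the listed genes 16 were called, 41 with DESeq2 and 10 to 16 with 1 library left out (10 without noCRS replicate 2). Scaling by total counts alone shifted the all-gene median (log2 fold change) from -0.02 to -0.17, and the share of calls that were higher from 90% to 79.5%. Pvalb turned sign with limma-voom (-0.18), DESeq2 size factors (-0.0036), total counts alone (-0.17) and a filter of 1 CPM in 3 libraries (-0.0060), and ranged from -0.61 to 1.04 with 1 library left out (-0.56 without noCRS replicate 3, -0.61 without CRS replicate 2, -0.47 without CRS replicate 4). Calb2 ranged from -0.42 to 0.58 and turned sign on leaving out noCRS replicate 1 (0.58), or either of CRS replicates 1 (0.09) and 4 (0.09). The cause was not tested. Low members rest on few counts, and 3 were too low to test.

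Same-numbered libraries did not deviate together (correlations 0.0153, -0.00319 and 0.0228), and different-numbered libraries gave -0.0645 to 0.0503. These values show no shared deviation by number, but so few pairs cannot settle whether the samples were paired. With the replicate block, 12 genes were called over all genes, 0 members and 4 listed genes (0 of the oligodendrocyte precursor genes), and the members' median was 0.18; log2 fold changes were -0.17 for Pvalb, 0.18 for Calb2 and -5.04 for Reln, all with the sign turned. CRS replicate 4 has no partner and adds nothing to that fit.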
